A study of Mus musculus with 18 samples.

Results

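The genes described here encode the proteasome, the protease complex that degrades ubiquitin-tagged proteins, together with the chaperones that assemble it. Members were chosen by gene name (Psma, Psmb, Psmc, Psmd, Psme, Psmf or Psmg followed by a number) and by a level of at least 1 TPM (transcripts per fixed total of transcripts, scaled by transcript length) in 3 or more libraries. Of 49 names of this form 47 passed, out of 16718 genes that passed the same level filter. Psma8 and Psmb11, which encode the core forms specific to testis and thymus, did not pass: Psma8 was listed at 0 in all libraries and Psmb11 reached at most 0.03 TPM.

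The samples were IMCD3 cells, an epithelial line from the mouse kidney's inner medullary collecting duct that carries SV40 sequence by its strain label, Tg(SV40E)bri/7. Wild-type cells, Ift140 knockout cells and Dync2h1 knockout cells were each held static or under flow at a shear of 0.7 dyne/cm2, for 3 h in both conditions, which makes 6 groups of 3 total-RNA libraries. The deleted genes act in transport along the primary cilium, Ift140 in the intraflagellar transport complex A and Dync2h1 as the heavy chain of its retrograde motor. Every group was grown in the same serum-containing medium with ciproxin at passage 10 to 15. The labels give no clone numbers for the knockouts and do not state that replicates were separate cultures, so p-values measure the spread between these libraries, which may be technical. A lower level in such bulk RNA can come from fewer cells that express a gene or from less RNA per cell, and these cannot be told apart.

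The proteasome consists of a barrel-shaped core and of caps that bind its ends. In the core, rings of alpha subunits (Psma genes) control entry and rings of beta subunits (Psmb genes) hold the cutting sites, of which Psmb5 gives the chymotrypsin-like, Psmb6 the caspase-like and Psmb7 the trypsin-like activity. Psmb8, Psmb10 and Psmb9 replace Psmb5, Psmb7 and Psmb6 in the immunoproteasome, the form that interferon induces and that serves antigen presentation. The regulatory cap holds a ring of ATPases (Psmc genes) that unfold substrates and a set of non-ATPase subunits (Psmd genes) that bind ubiquitin, remove it and form the lid. Other activators are Psme1 with Psme2 (PA28 alpha and beta), Psme3 (PA28 gamma, a nuclear activator) and Psme4 (PA200). Psmf1 encodes the regulator PI31, Psmg1 to Psmg4 encode core assembly chaperones, and Psmd5, Psmd9 and Psmd10 encode cap assembly chaperones. When proteasome activity falls short, the transcription factor NRF1 (Nfe2l1) is known to raise these genes together through antioxidant response elements in their promoters.

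All values below are TPM after a trimmed-mean scaling between libraries (scaled TPM), and changes are differences of log2(scaled TPM + 1). Depth is unknown, since TPM has the same total in every library. Ift140 was at 16.5, 19.5 and 18.7 scaled TPM in wild-type and at 6.26, 6.44 and 7.45 in Ift140 knockout libraries, both static. In Ift140 knockout flow libraries it was at 7.65, 8.53 and 15.4, so the library labelled Ift140 knockout flow replicate 3 lay near the wild-type level, and each result that uses this group includes it unless stated. Dync2h1 was at 40.4, 45.4 and 33.7 in wild-type and 15.1, 9.55 and 15.4 in Dync2h1 knockout libraries without flow. Of 13 collecting duct markers 10 reached 1 TPM, with a summed level of 2799 to 4819, led by keratins such as Krt8, while Aqp2, the water channel of principal cells, was at 0 in the wild-type libraries and at most 0.08 elsewhere. Leukocyte markers summed to 10.8 to 22.5, fibroblast markers to 0.76 to 5.98 and endothelial markers to 2.55 to 14.0. Fibroblast markers summed to 0.76 to 1.25 in Dync2h1 knockout and 4.03 to 5.98 in wild-type libraries, and to 1.36 to 3.28 in static and 3.45 to 5.31 in flow Ift140 knockout libraries, the latter overlapping wild type. The endothelial marker Flt1 was lower in Dync2h1 knockout than in wild-type cells, by a log2 difference of -0.97 in static (adjusted p = 0.00331) and -1.52 in flow culture (adjusted p = 8.10e-05). In static culture the collecting duct markers summed to 2799 to 2938 in wild-type, 3594 to 3894 in Ift140 knockout and 3546 to 3651 in Dync2h1 knockout libraries. The part of these markers in the results was not tested.

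To show the regulatory sequence of the genes on which the results turn, 7 promoter stretches are printed. They belong to the members that had a difference which stayed past the threshold under every alternative processing tried, that have a RefSeq promoter entry with one of the motifs searched, and they end where the gene begins. Sequences are from RefSeq promoters on GRCm38.p6, read 5′ to 3′ on the gene's strand, and each stretch holds 130 bases that no annotated exon covers. Capitals mark matches to 4 motifs, searched on both strands. The antioxidant response element was searched as TGACNNNGC. The CCAAT box was searched by the letters of its name. The letters of the GC box were GGCGGG. For the core of an ETS site they were CCGGAAG.
Psmb5 (chr14:54618023-54618152, minus strand): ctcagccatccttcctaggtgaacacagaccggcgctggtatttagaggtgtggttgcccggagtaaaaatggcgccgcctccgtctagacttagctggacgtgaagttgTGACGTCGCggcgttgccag
Psmd4 (chr3:95042615-95042744, minus strand): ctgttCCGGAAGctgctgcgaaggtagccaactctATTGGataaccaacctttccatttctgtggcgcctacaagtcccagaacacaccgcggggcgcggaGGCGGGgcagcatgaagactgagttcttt
Psmc1 (chr12:100110024-100110153, plus strand): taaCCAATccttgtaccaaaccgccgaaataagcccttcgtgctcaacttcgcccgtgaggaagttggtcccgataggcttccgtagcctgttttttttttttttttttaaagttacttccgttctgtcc
Psme3 (chr11:101316083-101316212, plus strand): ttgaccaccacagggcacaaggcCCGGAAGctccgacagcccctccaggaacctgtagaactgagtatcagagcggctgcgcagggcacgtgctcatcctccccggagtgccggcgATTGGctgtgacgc
Psme4 (chr11:30771596-30771725, plus strand): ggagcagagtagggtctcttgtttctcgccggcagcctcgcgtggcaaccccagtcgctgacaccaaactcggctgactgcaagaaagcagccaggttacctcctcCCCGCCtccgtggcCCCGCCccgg
Psmg1 (chr16:95990961-95991090, minus strand): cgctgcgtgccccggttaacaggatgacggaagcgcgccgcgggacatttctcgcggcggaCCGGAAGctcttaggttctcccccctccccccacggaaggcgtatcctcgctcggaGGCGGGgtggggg
Psmg4 (chr13:34162834-34162963, plus strand): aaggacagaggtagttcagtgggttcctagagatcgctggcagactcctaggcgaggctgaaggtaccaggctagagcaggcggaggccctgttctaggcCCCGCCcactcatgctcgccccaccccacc

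The stretch of Psmb5 held an antioxidant response element on the sense strand. Those of Psmd4, Psme3 and Psmg1 held the ETS core, those of Psmd4, Psmg1, Psmg4 and Psme4 a GC box, and those of Psmd4, Psmc1 and Psme3 a CCAAT box. Promoter entries (250 bases before to 50 after the start) were found for 40 of 47 members, not for Psmb1, Psmb2, Psmb7, Psmc3, Psmd3, Psmd7 and Psmg2. A gene was counted when any of its entries held a motif, for members as for all 27025 genes with an entry. These 27025 were not limited to genes that passed the level filter, as every member did. Shares among genes at the members' levels were not taken. In these windows the ETS core occurred in 14 members (35.0%) against 9.93% of all genes, and the GC box in 28 (70.0%) against 37.9%. The antioxidant response element occurred in 6 members (15.0%), namely Psmb5, Psmb6, Psmc6, Psmd9, Psmd12 and Psme4, against 14.0% of all genes. The CCAAT box occurred in 13 (32.5%) against 41.1%, and the heat shock element (GAA, TTC and GAA, each followed by the next after 2 bases) in 0 against 0.662%. Matches can overlap, and a match is a stretch of letters and not a shown binding site.

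The level filter required each of the 47 members to be transcribed, and their mean levels ran from 3.85 to 539 scaled TPM. How the order of levels related to place in the complex was not measured. The mean over 18 libraries was highest for Psmb4, a structural beta subunit, at 539 scaled TPM, followed by Psmd2, a scaffold of the cap base, at 423, and Psmb7 at 364. Neighbours in this order often changed places: Psmb4 lay above Psmd2 in 16 of 18 libraries, but Psmc1 lay above Psme4 in only 9. Among the catalytic genes Psmb7 was highest, Psmb6 lay at 234 and Psmb5 at 106. Their immune counterparts were lower, with Psmb8 at 60.7, Psmb10 at 18.9 and Psmb9 at 3.85, the lowest of all members. Among the activators Psme4 lay at 182, above Psme1 at 54.9, Psme3 at 51.1, Psme2b at 42.9 and Psme2 at 32.7. Psme2b is a near-identical copy of Psme2, so how reads were split between them is uncertain, as it is between Psmb5, Psmb6 and Psmb7 and their named pseudogenes. The chaperones ranged from Psmd5 at 159 to Psmg4 at 16.4. The ratio of highest to lowest library was smallest for Psmd5 (1.31) and Psme4 (1.33) and largest for Psmb9 (5.80) and Psmd11 (3.53).

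**Figure D1:**
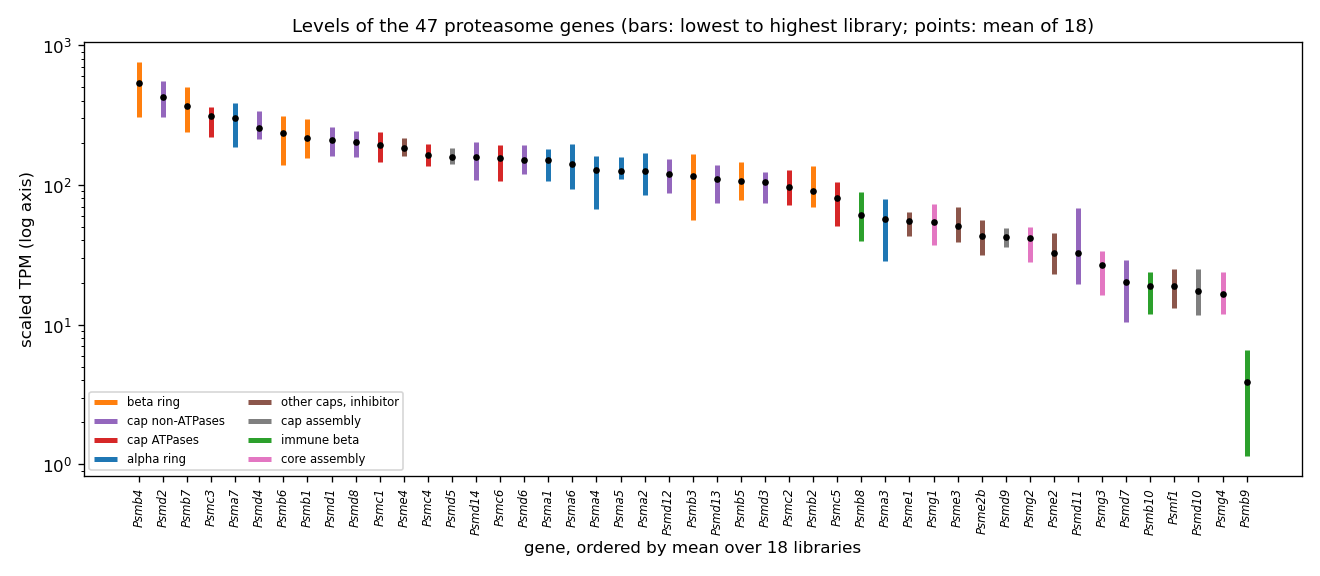
Scaled TPM of each member on a log axis, with a bar from the lowest to the highest of 18 libraries, a point at their mean and the color giving the role. Psmb4 lies highest with a mean of 539 and Psmb9 lowest at 3.85, apart from the other members.

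The first question was how flow changed the proteasome genes in cells with and without the ciliary transport genes. In wild-type cells 6 members rose and 0 fell (12.8% of 47), beside 20.5% of all genes passing, 10.2% rising and 10.3% falling. Of these 6, 5 were cap genes (Psmc2, Psmc5, Psmd3, Psmd8 and Psmd12) and the sixth was the activator Psme3. In Ift140 knockout cells 3 rose, Psmc2, Psme3 and Psmf1, and 0 fell (6.38% of members beside 17.5% of all genes, 9.21% rising and 8.27% falling). In Dync2h1 knockout cells 10 rose and 0 fell (21.3% of members beside 19% of all genes, 10.8% rising and 8.15% falling). These 10 came from the core (Psma5, Psmb2, Psmb4), the cap (Psmc2, Psmd2, Psmd11, Psmd12), the activators (Psme3) and the cap chaperones (Psmd5, Psmd9). Psmc2 and Psme3 rose in all 3 lines, Psmd12 in wild-type and Dync2h1 knockout cells, 11 other members in 1 line, and 33 in none. Of all 16718 genes 846 rose in 3 lines, 628 in 2, 1257 in 1 and 13987 in none. A gene passed at an adjusted p under 0.05 (limma, Benjamini-Hochberg over 16718 genes).

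Psme3, which activates the core in the nucleus without ATP, rose in each line. Its level was 40.1, 41.7 and 44.8 scaled TPM in static and 54.6, 53.8 and 52.2 in flow wild-type libraries, a log2 change of 0.34 (SE 0.10, adjusted p = 0.0196). In Ift140 knockout cells it went from 44.0, 51.7 and 43.3 to 69.1, 57.6 and 56.4, a change of 0.39 (SE 0.10, adjusted p = 0.0103). The Dync2h1 knockout went from 48.7, 38.9 and 42.3 to 60.9, 61.8 and 58.2, a change of 0.47 (SE 0.10, adjusted p = 0.00244). In each line every flow library lay above every static library, as in 19.5%, 13.6% and 22.8% of all genes in wild-type, Ift140 knockout and Dync2h1 knockout cells. With Ift140 knockout flow replicate 3, as labelled, left out the change in that line was 0.44 (adjusted p = 0.00817).

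Psmc2 encodes an ATPase of the cap base. It was at 87.1, 90.5 and 89.3 scaled TPM in static and 113, 101 and 116 in flow wild-type libraries, a log2 change of 0.30 (SE 0.08, adjusted p = 0.0175). In Ift140 knockout cells it was at 91.1, 88.3 and 80.5 and at 111, 110.1 and 129, a change of 0.42 (SE 0.08, adjusted p = 0.00233). Dync2h1 knockout libraries had it at 72.2, 72.5 and 86.0 and at 107, 101 and 104, a change of 0.44 (SE 0.08, adjusted p = 0.00167). Static and flow libraries did not overlap in any line. Of the other ATPase genes, Psmc1, Psmc3, Psmc4 and Psmc6 had estimates of -0.00, -0.06, 0.06 and -0.09 in wild-type cells and passed in no line. Psmc5, a further ATPase, was at 57.3, 63.5 and 67.1 and rose to 85.1, 82.0 and 94.3 in wild-type cells, by 0.47 (SE 0.15, adjusted p = 0.0393). Its changes of 0.38 in Ift140 knockout and 0.40 in Dync2h1 knockout cells did not pass.

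**Figure D2:**
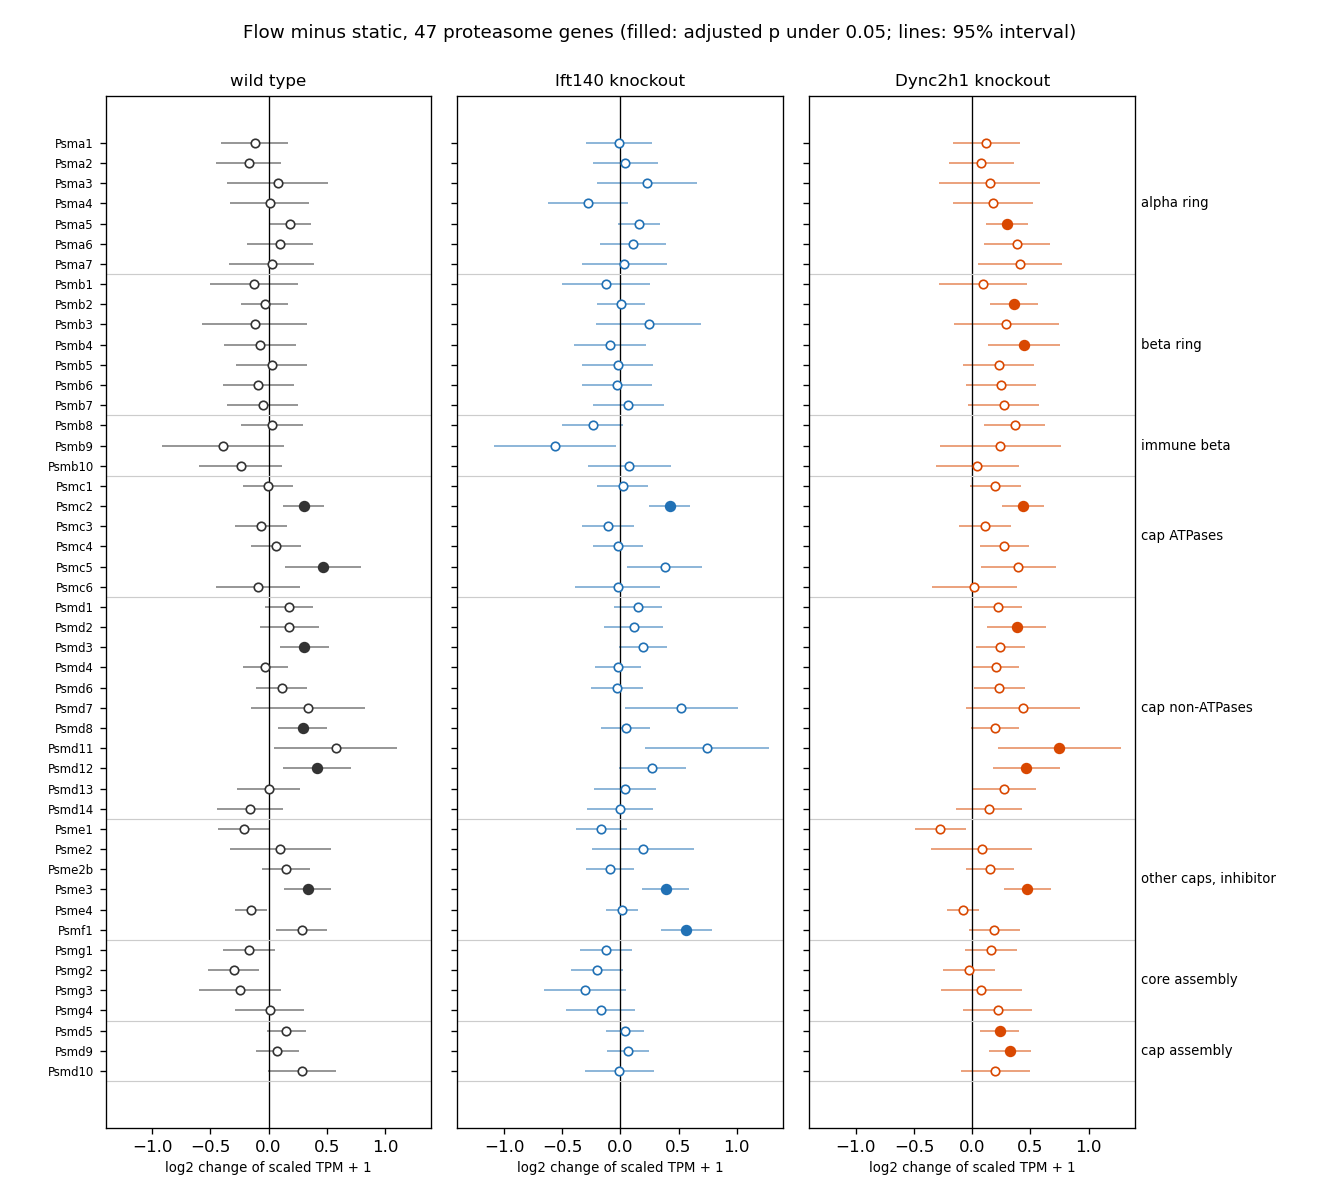
Log2 change from static to flow of each of 47 members (rows, by role) in 3 lines, with 95% intervals; filled points passed at an adjusted p under 0.05. Psmc2 and Psme3 are filled in all 3 panels, and in the Dync2h1 knockout 44 of 47 points lie right of 0 against 27 in each other line.

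Psmf1 encodes PI31, a protein that binds the core and inhibits it in vitro. It was at 15.4, 16.0 and 16.6 scaled TPM in static and 24.4, 25.2 and 23.1 in flow Ift140 knockout libraries, a log2 change of 0.57 (SE 0.10, adjusted p = 0.00125). Without the library labelled replicate 3 the change was 0.60 (adjusted p = 0.00207). In wild-type cells it was at 16.7, 13.1 and 16.0 and 16.5, 21.9 and 18.2, groups that overlap, with an estimate of 0.29 (adjusted p = 0.0613). Dync2h1 knockout libraries had it at 18.5, 17.2 and 17.7 and 20.8, 20.4 and 20.0, a change of 0.19 (adjusted p = 0.231). The flow change of Psmf1 in Ift140 knockout cells minus that in wild-type cells, 0.28 (SE 0.15), did not pass (adjusted p = 0.666).

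Of the 11 non-ATPase subunits of the cap, 3 rose in wild-type, 0 in Ift140 knockout and 3 in Dync2h1 knockout cells. Over all genes 10.2%, 9.21% and 10.8% rose in these lines. Psmd12, a lid subunit, was at 86.8, 112 and 107 and rose to 147, 129.7 and 131 in wild-type cells, by 0.42 (SE 0.14, adjusted p = 0.0408). Without Dync2h1 it was at 109.6, 94.2 and 123 and rose to 149, 148 and 152, by 0.47 (SE 0.14, adjusted p = 0.0263), and the groups overlapped in neither line. Psmd3, another lid subunit, was at 74.1, 94.7 and 96.3 in static and 99.7, 118 and 109 in flow wild-type libraries, a rise of 0.31 (SE 0.10, adjusted p = 0.0372). Psmd8, also of the lid, was at 185, 177 and 171 and rose to 232, 217 and 205 there, by 0.29 (SE 0.10, adjusted p = 0.0451). All flow libraries of both genes lay above the static ones in wild-type cells. Psmd11, a lid subunit, is described next for its large estimates with flow. It was at 30.3, 19.9 and 24.1 in static and 38.1, 54.1 and 35.2 in flow Dync2h1 knockout libraries, a rise of 0.75 (SE 0.25, adjusted p = 0.0472). In Ift140 knockout cells it was at 24.0, 32.8 and 20.5 and 35.9, 32.3 and 68.6, with the highest value in the library labelled replicate 3, and the change of 0.74 did not pass (adjusted p = 0.0510). In wild-type cells it was at 19.4, 24.7 and 21.9 and 36.2, 34.6 and 29.2, and although these libraries did not overlap the change of 0.58 did not pass (adjusted p = 0.121). Psmd2, the scaffold that receives shuttle proteins, was at 365, 382 and 484 and rose to 511, 553 and 529.7 in Dync2h1 knockout cells, by 0.38 (SE 0.12, adjusted p = 0.0343). Psmd1, Psmd4, Psmd6, Psmd7, Psmd13 and Psmd14, the last of which encodes the deubiquitinase of the lid, passed in no flow comparison. Summed over the 11 genes, wild-type libraries went from 1541, 1670.1 and 1646 to 1797, 1743 and 1843 scaled TPM, groups that did not overlap.

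In the core, none of the 17 alpha and beta genes passed with flow in wild-type or Ift140 knockout cells. Over all genes 20.5% and 17.5% passed there. Of these 17 core genes 3 rose in Dync2h1 knockout cells, where 10.8% of all genes rose. Psmb4 was at 522, 527 and 534 in static and 719, 756 and 675 in flow libraries, a rise of 0.44 (SE 0.15, adjusted p = 0.0454). Psmb2, a structural beta subunit, was at 96.4, 103 and 90.8 and rose to 128, 136 and 109, by 0.36 (SE 0.10, adjusted p = 0.0161). Psma5, an alpha subunit, rose by 0.30 (SE 0.08, adjusted p = 0.0204). No flow library of these 3 genes lay at or below a static library in Dync2h1 knockout cells. Summed over the 7 standard beta genes, Dync2h1 knockout libraries stood at 1721, 1654 and 1688 in static and 2064, 2078 and 2134 scaled TPM in flow culture. In wild-type libraries the same sums were 1782, 1589.9 and 1665 and 1661, 1533 and 1586, which overlap.

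Of the 7 assembly chaperones 2 passed with flow, both rising in Dync2h1 knockout cells, where 10.8% of all genes rose. Psmd9, a base chaperone, was at 36.1, 36.9 and 38.2 and rose to 44.4, 46.2 and 49.5 with flow in Dync2h1 knockout cells, by 0.32 (SE 0.09, adjusted p = 0.0151). Psmd5, another base chaperone, rose there by 0.23 (SE 0.08, adjusted p = 0.0466). Psmd10 and the core chaperones Psmg1, Psmg2, Psmg3 and Psmg4 passed in no flow comparison. In wild-type cells Psmg1, Psmg2, Psmg3 and Psmg4 had changes of -0.17, -0.30, -0.25 and 0.01, and in Dync2h1 knockout cells 0.16, -0.03, 0.08 and 0.22. Summed over these 4 genes, wild-type libraries stood at 158, 139 and 140.2 in static and 127, 127 and 124 scaled TPM in flow culture, without overlap. Of the remaining activators, Psme1, Psme2, Psme2b and Psme4 passed in no flow comparison, and Psme1 had negative estimates in all 3 lines (-0.21, -0.16 and -0.27).

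Many of these calls lay near the threshold and ended when 1 library was left out. All 6 wild-type calls ended when 1 of the 6 wild-type libraries was left out (Psmc2 without static replicate 1 or flow replicates 1 or 3, Psmd3 without static replicate 1 or flow replicates 2 or 3, Psme3 without static replicates 1 or 2 or flow replicates 1 or 2, Psmd12 whichever library but static replicate 2 was left out, Psmc5 and Psmd8 whichever was), with adjusted p from 0.0518 to 0.195. In Ift140 knockout cells no left-out library ended a call, but those of Psmc2 (adjusted p = 0.0751) and Psme3 (adjusted p = 0.142) ended when the fit held just the static and flow libraries of that line. In Dync2h1 knockout cells Psme3 and Psmc2 held whichever library was left out. The Psmc2 call ended with the deposited TPM unscaled in Dync2h1 knockout (change 0.32, adjusted p = 0.0770) and wild-type cells (change 0.31, adjusted p = 0.0821). The other 8 calls ended there without 1 or more libraries, with adjusted p from 0.0572 to 0.192: Psmb4 and Psmd5 whichever was left out, Psmd2 and Psmd12 whichever but static replicate 3, Psmd11 without static replicates 2 or 3 or flow replicates 1 or 2, Psmb2 without static replicate 3 or flow replicates 1 or 2, Psma5 without static replicate 2 or flow replicates 1 or 3, and Psmd9 without static replicate 1 or flow replicate 3. The count in Dync2h1 knockout cells also depended on the scaling: with the deposited TPM unscaled 1 member rose and 1 fell, and with quantile normalisation 2 rose and 1 fell. In wild-type cells each of these scalings gave 4 that rose and 1 that fell.

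**Figure D3:**
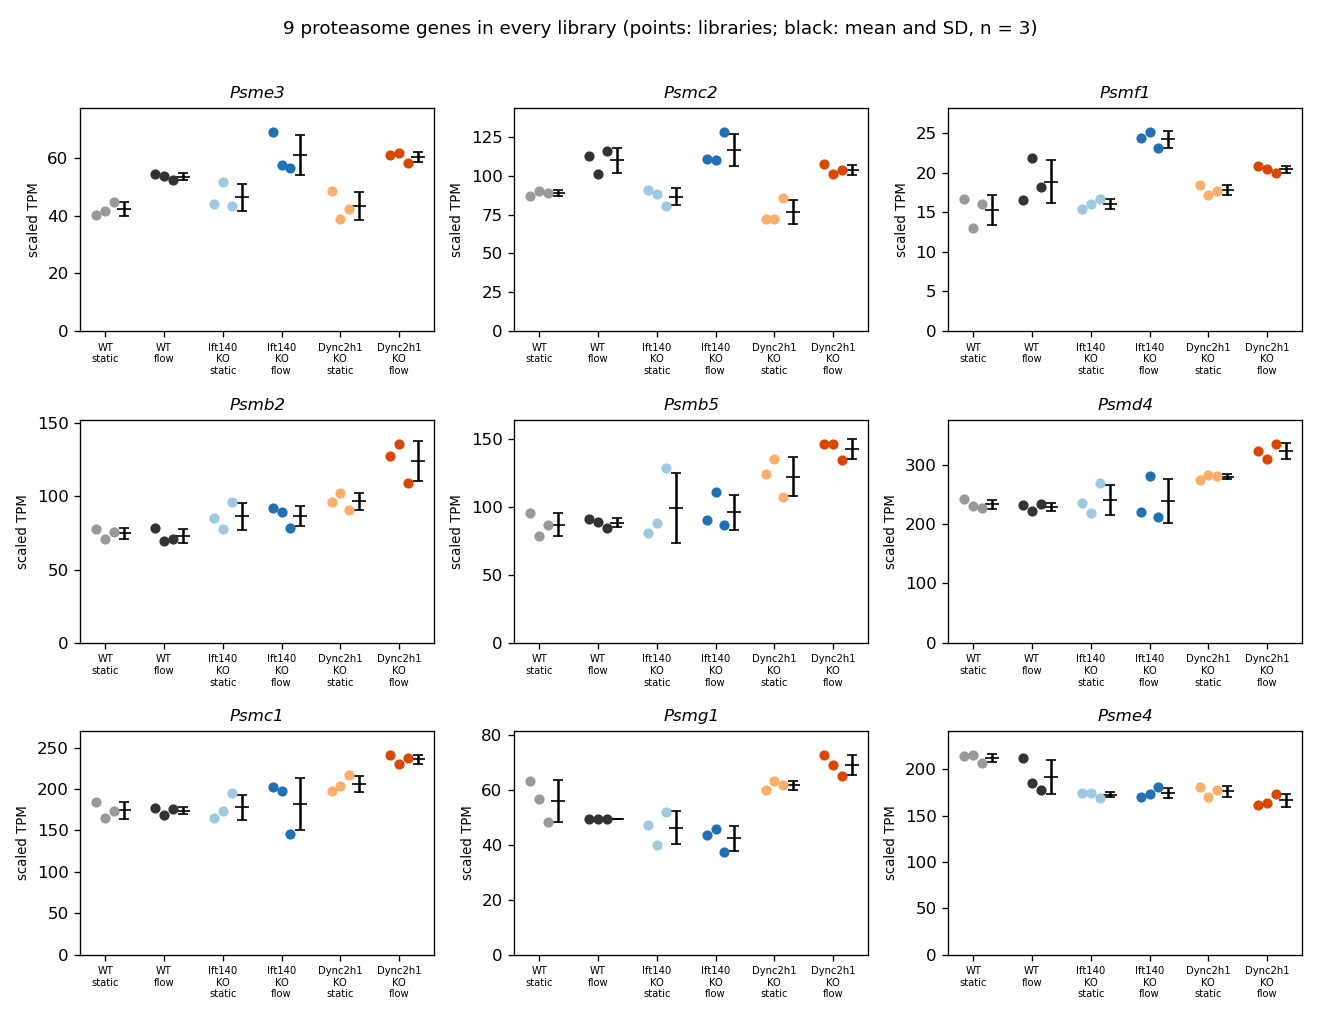
Scaled TPM of 9 members in each of 18 libraries (points) in 6 groups, with the mean and SD of 3 libraries in black and axes starting at 0. Psme3 and Psmc2 are higher with flow in each line, Psmb2, Psmb5, Psmd4, Psmc1 and Psmg1 have their highest group mean in the Dync2h1 knockout with flow, and Psme4 in static wild-type cells.

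Over all 47 members, the median log2 change with flow was 0.03 in wild-type and 0.02 in Ift140 knockout cells, beside -0.01 and 0.01 over all genes. For the Dync2h1 knockout it was 0.23 beside 0.01, and 44 of 47 members lay above 0 beside 52.1% of all genes. In that line 32 of 47 members had every flow library above every static one, and 1 of 47 showed the reverse. Over all genes these relations held in 22.8% and 18.3%. With the deposited TPM unscaled the median was 0.11 beside -0.08 over all genes, and with quantile normalisation 0.09 beside -0.01. Leaving the deposited TPM unscaled moved the median of all genes by over 0.1 in 2 of the 9 comparisons, Dync2h1 knockout against wild type in flow (from 0.01 to -0.10) and the difference of their flow responses (from 0.02 to -0.09).

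**Figure D4:**
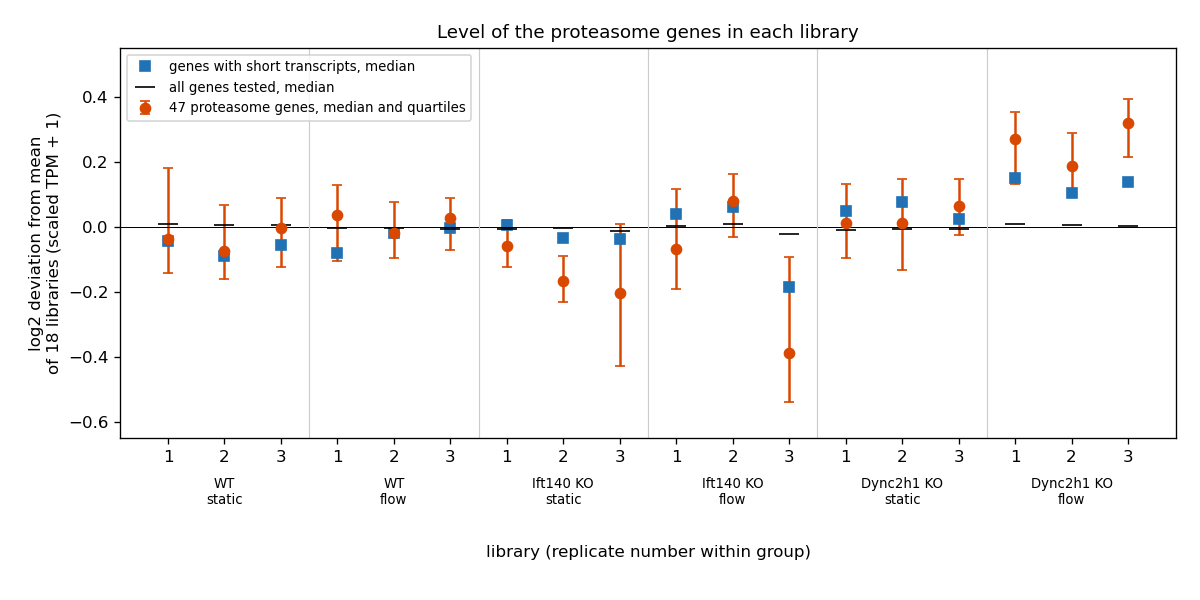
Median log2 deviation of the 47 members from their own mean over 18 libraries, with quartiles, for each library in 6 groups of 3, beside the medians of genes with short transcripts and of all genes tested. The 3 Dync2h1 knockout flow libraries lie highest at 0.27, 0.19 and 0.32, and the library labelled Ift140 knockout flow replicate 3 lies lowest at -0.39.

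Seen by library, the median deviation of the members from their own mean was 0.27, 0.19 and 0.32 in Dync2h1 knockout flow libraries, where 43, 41 and 43 of 47 members lay above it. It was -0.39 in the library labelled Ift140 knockout flow replicate 3, where 7 members lay above it, and -0.07 and 0.08 in the other two of that group. Genes with short transcripts went the same way as the members in some libraries and not in others. Of the 47 members 30 fall among genes with short transcripts (up to 2110 bases) and 2 among those with long ones, and the short class as a whole deviated by 0.15, 0.10 and 0.14 in Dync2h1 knockout flow libraries and by -0.18 in the library labelled Ift140 knockout flow replicate 3. Genes with long transcripts deviated by 0.19 in the library labelled Ift140 knockout flow replicate 3, beside -0.10 to 0.08 in the other libraries. In static Ift140 knockout replicates 2 and 3 the members lay at -0.17 and -0.20, with the short class at -0.04 in each. In Ift140 knockout flow replicate 1 the members lay at -0.07 and the short class at 0.04. The part of transcript length in the members' level was not tested.

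The second question was how each knockout differed from wild type at the same condition. In static culture the Ift140 knockout had 0 members higher and 4 lower (8.51% beside 18.1% of all genes, 8.97% higher and 9.08% lower). Psma3, an alpha subunit, was at 61.4, 65.4 and 53.1 scaled TPM in wild-type and 46.1, 39.0 and 28.7 in Ift140 knockout libraries, a difference of -0.67 (SE 0.20, adjusted p = 0.0328). Psma2, another alpha subunit, was at 141, 139.9 and 133 and 113, 115 and 84.0, a difference of -0.42 (SE 0.13, adjusted p = 0.0374). The chaperone gene Psmg2 was at 49.8, 45.9 and 46.6 and 40.1, 37.3 and 36.1, a difference of -0.32 (SE 0.10, adjusted p = 0.0456). In all 3 genes each knockout library lay below each wild-type library, as in 19% of all genes, while 19.4% showed the reverse. Psme4, which encodes the PA200 activator, was at 214, 215 and 207 in wild-type and 174, 174 and 169.6 in knockout libraries, a difference of -0.30 (SE 0.06, adjusted p = 0.00441). The Psme4 call held whichever library was left out and ended with the deposited TPM unscaled (adjusted p = 0.0826). Those of Psmg2 (whichever library was left out), Psma2 (without each wild-type library or knockout replicate 3) and Psma3 (without wild-type replicates 1 or 2 or knockout replicates 2 or 3) ended, with adjusted p from 0.0566 to 0.175.

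In static culture the Dync2h1 knockout had 5 members higher and 1 lower (12.8% beside 27.6% of all genes, 13.5% higher and 14.1% lower). Psmb5, which encodes the chymotrypsin-like subunit, was at 95.4, 78.5 and 86.4 in wild-type and 124, 135 and 107 in Dync2h1 knockout libraries, a difference of 0.49 (SE 0.14, adjusted p = 0.0192). Psmb2 was at 77.4, 70.8 and 75.8 and 96.4, 103 and 90.8, a difference of 0.37 (SE 0.10, adjusted p = 0.00937). Neither gene's groups overlapped, a relation that 23.2% of all genes showed upward and 24.3% downward. Psmg4, a core chaperone, was at 13.9, 12.2 and 16.1 and 17.7, 18.3 and 20.1, a difference of 0.39 (SE 0.14, adjusted p = 0.0482). Psme2b was at 38.4, 36.8 and 38.2 and 45.9, 47.4 and 47.6, a difference of 0.31 (SE 0.10, adjusted p = 0.0282), while its near-copy Psme2 had an estimate of -0.34. Psmd4, the ubiquitin receptor of the cap, differed by 0.26 (SE 0.09, adjusted p = 0.0469). Psme4 was again lower, at 182, 169.8 and 178, a difference of -0.27 (SE 0.06, adjusted p = 0.00517). Both knockouts were compared with the same wild-type libraries, so their Psme4 differences from wild type are not independent. The calls of Psmb2 and Psme4 held under every alternative. Those of Psmd4 and Psme2b (whichever library was left out), Psmg4 (whichever but wild-type replicate 3) and Psmb5 (without wild-type replicate 2 or knockout replicates 1 or 2) ended, with adjusted p from 0.0531 to 0.187. Quantile normalisation gave 4 members higher and 3 lower.

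**Figure D5:**
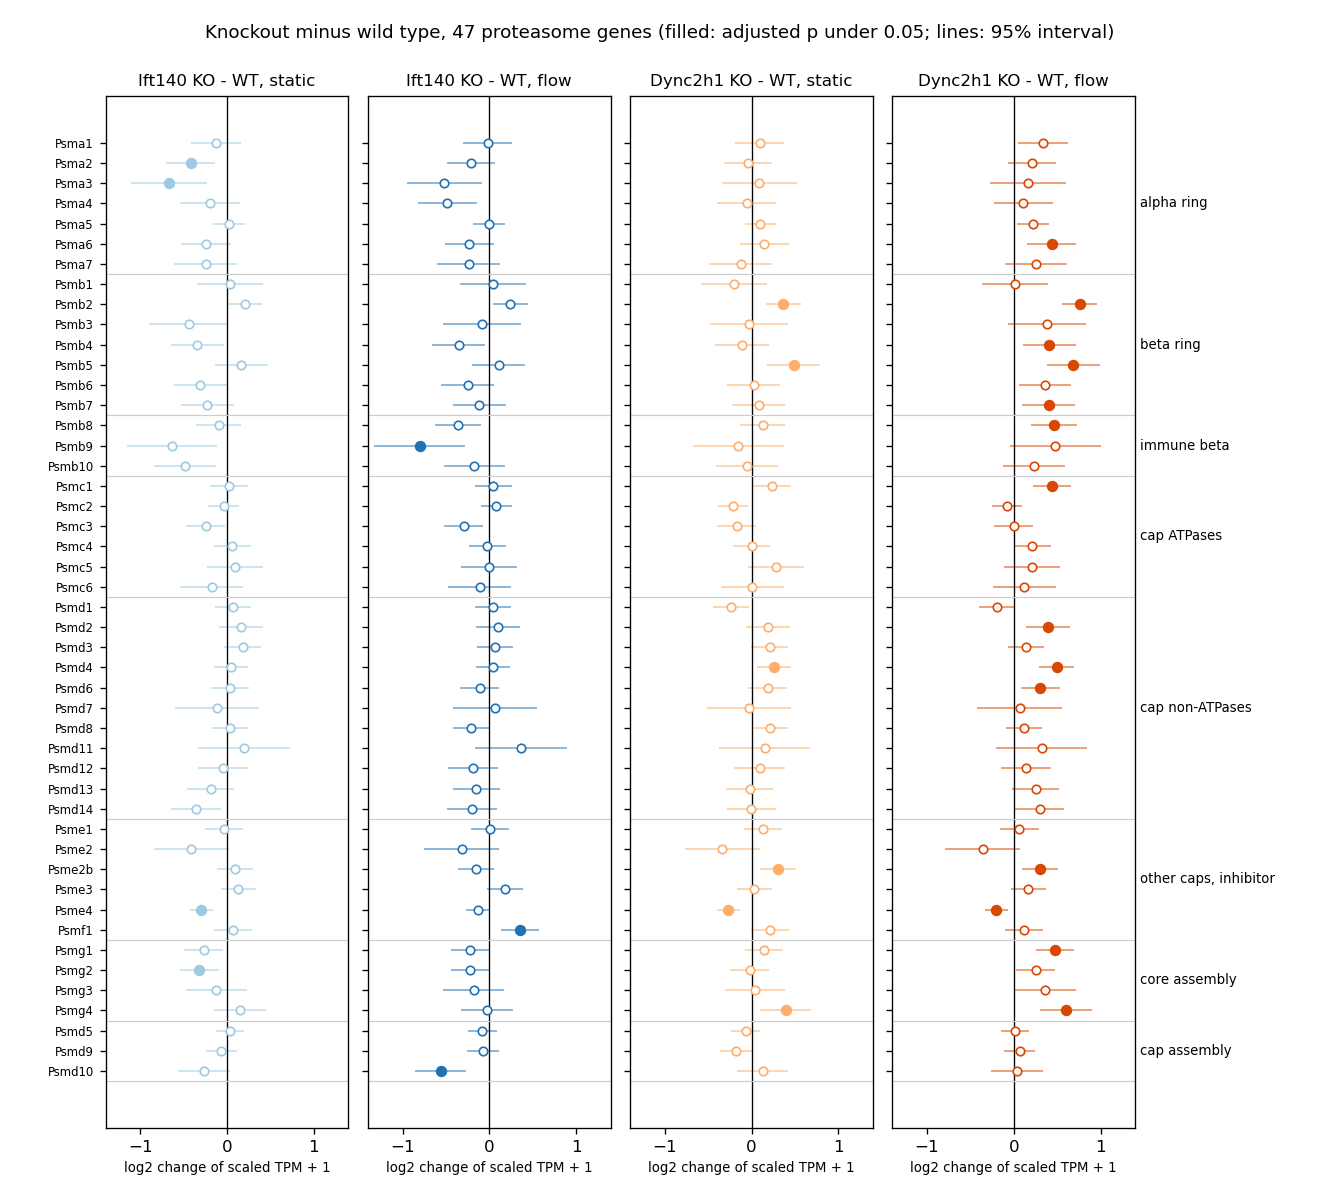
Log2 difference of each of 47 members between each knockout and wild type without and with flow, with 95% intervals; filled points passed at an adjusted p under 0.05. In the Dync2h1 knockout in flow 14 points are filled, 13 of them right of 0, and Psme4 is left of 0 in all 4 panels.

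In flow culture the Ift140 knockout had 1 member higher and 2 lower (6.38% beside 15.3% of all genes, 7.73% higher and 7.52% lower). Psmb9, an immunoproteasome gene, was at 5.08, 3.01 and 2.86 in wild-type and 1.14, 2.27 and 1.53 in Ift140 knockout libraries, a difference of -0.80 (SE 0.25, adjusted p = 0.0383). Psmd10, which encodes the base chaperone gankyrin, was at 24.9, 16.7 and 21.2 and 14.1, 14.8 and 12.2, a difference of -0.56 (SE 0.14, adjusted p = 0.0122). Psmf1 was higher by 0.35 (SE 0.10, adjusted p = 0.0309), from the values given above. Groups did not overlap in any of the 3 genes, a relation that 14.4% of all genes showed upward and 13.8% downward. With Ift140 knockout flow replicate 3, as labelled, left out Psmd10 differed by -0.49 (adjusted p = 0.0450), Psmf1 by 0.38 (adjusted p = 0.0347) and Psmb9 by -0.78 (adjusted p = 0.0812). Without wild-type flow replicate 1 all 3 calls ended. Those of Psmb9 also ended without wild-type replicate 2 or knockout replicate 1 and those of Psmf1 without wild-type replicate 3 or knockout replicates 1 or 2, with adjusted p from 0.0535 to 0.166 over all of these. With the deposited TPM unscaled 1 member was higher and 4 lower, and with quantile normalisation 1 and 6.

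In flow culture the Dync2h1 knockout had 13 members higher and 1 lower (29.8% beside 30.1% of all genes, 16.1% higher and 14% lower). Psmb2 was at 78.6, 69.5 and 70.8 in wild-type and 128, 136 and 109 in Dync2h1 knockout libraries, a difference of 0.76 (SE 0.10, adjusted p = 2.53e-05). Psmb5 was at 91.2, 88.9 and 84.7 and 147, 146 and 134, a difference of 0.68 (SE 0.14, adjusted p = 0.00199). The lowest knockout library of each gene lay above the highest wild-type library. Psmg4 was at 13.8, 17.0 and 11.8 and 23.9, 21.8 and 20.2, a difference of 0.60 (SE 0.14, adjusted p = 0.00396). Its fellow core chaperone gene Psmg1 was at 49.3, 49.3 and 49.2 and 72.5, 69.0 and 65.1, a difference of 0.47 (SE 0.11, adjusted p = 0.00284). Psmd4, the ubiquitin receptor, was at 231, 222 and 234 and 324, 309 and 336, a difference of 0.49 (SE 0.09, adjusted p = 0.000829). These groups did not overlap either. The ATPase gene Psmc1 was higher by 0.44 (SE 0.10, adjusted p = 0.00411). Psma6, Psmb4, Psmb7, Psmb8, Psmd2, Psmd6 and Psme2b were higher by 0.31 to 0.46, and Psme4 was lower by -0.20.

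By role, those higher in this comparison were 4 of 7 standard beta genes (Psmb2, Psmb4, Psmb5 and Psmb7) and 2 of 4 core chaperones. They were 3 of 11 non-ATPase cap subunits, 1 of 6 ATPases and 1 of 7 alpha subunits. Of the immune forms 1 of 3 was higher, of the other caps and inhibitor 1 of 6 and of the cap chaperones 0 of 3. Over all genes 16.1% were higher, and each role holds few genes. The median difference over all members was 0.23 beside 0.01 over all genes, and 42 of 47 lay above 0 beside 51.5% of all genes. In 25 of 47 members every Dync2h1 knockout library lay above every wild-type library, and 2 of 47 showed the reverse. Over all genes these relations held in 25.1% and 21.6%. The calls of Psmb2, Psmb5, Psmc1, Psmd4, Psmg1 and Psmg4 held under every alternative, and that of Psmb8 ended with the deposited TPM unscaled (adjusted p = 0.109). The other 7 calls ended without some library, with adjusted p from 0.0550 to 0.152. They were Psmb4 and Psmb7 (whichever library was left out), Psmd6 (whichever but knockout replicate 2), Psma6 (without wild-type replicate 2 or knockout replicates 1 or 2), Psmd2 (without wild-type replicates 1 or 2 or knockout replicate 2), Psme2b (without wild-type replicate 1 or knockout replicates 1 or 3) and Psme4 (without wild-type replicate 1 or knockout replicates 1 or 2). With the deposited TPM unscaled 6 members were higher and 2 lower, and with quantile normalisation 8 and 2. The comparison shares its Dync2h1 knockout flow libraries, the ones with the highest member medians, with the flow comparison in that line.

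Whether the response to flow itself differed between lines was tested as the difference of both changes. No member passed in limma, either for the Ift140 knockout (0.227% of all genes passed, 0.0778% upward and 0.15% downward, with 0 members at an unadjusted p under 0.05) or for the Dync2h1 knockout (0.485% of all genes, 0.179% upward and 0.305% downward, with 3 members at an unadjusted p under 0.05). The 3 were Psmb4 with a difference of 0.52 (SE 0.21, adjusted p = 0.396), Psmb2 with 0.39 (SE 0.14, adjusted p = 0.310) and Psmg1 with 0.33 (SE 0.15, adjusted p = 0.476). The median difference over members was 0.20 for the Dync2h1 knockout beside 0.02 over all genes, with 40 of 47 above 0 beside 54.1% of all genes. That a member rose in 1 line and not in another is therefore not shown to be a difference between lines. Equal responses are not shown either: in simulated data the test for the Dync2h1 knockout found 30% of 1.5-fold differences.

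The genes of the cutting sites were compared over all groups. Psmb6, the caspase-like subunit, was at 268, 230.4 and 229 in static and 229, 218 and 237 in flow wild-type libraries, at 211, 204 and 174 and 211, 237 and 139.8 in Ift140 knockout and at 252, 237 and 249 and 285, 280.1 and 314 in Dync2h1 knockout libraries, and passed in no comparison. Psmb7, the trypsin-like subunit, was in the same order at 366, 343 and 371, at 353, 346 and 343, at 330.3, 339 and 258, at 347, 398 and 241, at 409, 353 and 383 and at 437, 438 and 506. Psmb7 differed only between Dync2h1 knockout and wild type in flow, by 0.40 (SE 0.14, adjusted p = 0.0454), a call that ended whichever of the 6 libraries was left out. Psmb5 was at 80.8, 87.9 and 128 in static and 90.6, 111 and 86.5 in flow Ift140 knockout libraries, beside the values above, and passed only in both comparisons of the Dync2h1 knockout with wild type. In all 3 genes the library labelled Ift140 knockout flow replicate 3 was the lowest of its group.

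Of the immune forms, Psmb8 was at 56.4, 56.1 and 61.9 in static and 55.3, 62.7 and 59.9 in flow wild-type libraries, at 45.2, 52.4 and 67.1 and 48.8, 49.4 and 39.7 in Ift140 knockout and at 60.5, 65.8 and 64.2 and 84.9, 72.4 and 89.6 in Dync2h1 knockout libraries. It was higher in Dync2h1 knockout than in wild-type cells in flow, by 0.46 (SE 0.12, adjusted p = 0.0105), and the groups did not overlap. Psmb9 was at 5.65, 3.82 and 5.61 in static wild-type and 2.77, 2.08 and 3.87 in static Ift140 knockout libraries, and at 5.30, 4.30 and 3.62 in static and 6.14, 3.70 and 6.60 in flow Dync2h1 knockout libraries. It passed only in the flow comparison of the Ift140 knockout with wild type. Psmb10 was in the order used for Psmb8 at 21.4, 22.1 and 21.0, at 15.6, 15.8 and 23.8, at 17.0, 13.2 and 15.3, at 20.6, 16.5 and 11.9, at 20.4, 20.8 and 20.9 and at 20.9, 20.9 and 22.2, and passed in no comparison. Leukocyte markers, whose cells are rich in immune forms, summed to 12.9 to 22.5 in Ift140 knockout flow and 13.1 to 18.3 in Dync2h1 knockout flow libraries, beside 10.8 to 11.9 in wild-type flow libraries, and their part was not tested.

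Genes that work with these members were counted in lists chosen with earlier results of these data known. Of 17 measured proteasome partners outside the naming rule, 4 rose with flow in wild-type, 4 in Ift140 knockout and 7 in Dync2h1 knockout cells, and 0 fell. These are 23.5%, 23.5% and 41.2% of the list, beside 20.5%, 17.5% and 19% of all genes passing in either direction and 10.2%, 9.21% and 10.8% rising. Zfand2a, which encodes the stress-induced proteasome adaptor AIRAP, was at 23.0, 25.1 and 22.9 in static and 60.3, 52.1 and 55.9 in flow wild-type libraries, a rise of 1.21 (SE 0.10, adjusted p = 6.16e-07). It rose by 1.73 in Ift140 knockout and 1.80 in Dync2h1 knockout cells, more than any member in each line. Its relative Zfand5, a proteasome activator, rose by 0.50, 0.47 and 0.56, and Akirin1 by 0.48, 0.58 and 0.75 in wild-type, Ift140 knockout and Dync2h1 knockout cells. Adrm1, a ubiquitin receptor of the cap, rose in wild-type cells by 0.68, and Ubqln1, a shuttle protein, rose in both knockouts by 0.34 and 0.35. Uchl5, a deubiquitinase of the cap, rose with flow in Dync2h1 knockout cells by 0.69 (SE 0.15, adjusted p = 0.00403) and was higher there than in wild type in flow by 1.18. Between static knockout and wild-type cells 0 partners were higher and 4 lower for Ift140 (23.5% beside 18.1% of all genes), and 1 was higher and 5 lower for Dync2h1 (35.3% beside 27.6% of all genes). Akirin1 had differences of -0.69 and -0.73, and Shfm1, which encodes the smallest cap subunit, of -0.62 and -0.75.

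Of 15 genes around NRF1 and its relatives, 8 rose and 0 fell with flow in each line (53.3% of the list), beside 10.2%, 9.21% and 10.8% of all genes rising in wild-type, Ift140 knockout and Dync2h1 knockout cells. Nfe2l1 itself rose by 0.23 in wild-type (adjusted p = 0.0439) and 0.33 in Dync2h1 knockout cells (adjusted p = 0.00711), and its change of 0.05 in Ift140 knockout cells did not pass. Larger rises were those of Nfe2l2 (0.87, 1.22 and 0.77 in wild-type, Ift140 knockout and Dync2h1 knockout cells), the regulator of the antioxidant response. Its dimer partner Mafk rose by 1.44, 1.21 and 1.38, and the autophagy receptor gene Sqstm1 by 1.04, 1.04 and 1.36. Of 12 genes of ubiquitin supply 5 rose and 0 fell in each line (41.7%), beside the same shares of all genes. Ubb, which encodes ubiquitin, rose by 0.42, 0.49 and 0.62. Of the 6 members with an antioxidant response element in the promoter window, Psmd12 and Psmd9 rose with flow in any line and Psmb5, Psmb6, Psmc6 and Psme4 in none. Among all 40 members with a promoter entry 12 rose in any line, and the part of the element was not tested.

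Of 12 antigen presentation genes 0 rose and 2 fell with flow in wild-type cells (Irf1 and Calr), 1 fell in Ift140 knockout cells (Tap1, by 1.04) and 1 rose in Dync2h1 knockout cells, or 16.7%, 8.33% and 8.33% beside 20.5%, 17.5% and 19% of all genes. The last was Irf1, an interferon-responsive transcription factor, which had changes of -0.44 in wild-type and 0.33 in Dync2h1 knockout cells, and the difference between these responses, 0.78 (SE 0.15), passed (adjusted p = 0.0290). Between Dync2h1 knockout and wild-type cells in flow 5 were higher and 1 was lower (50% of the list), beside 30.1% of all genes passing, 16.1% higher and 14% lower. B2m, the light chain of class I molecules, was higher by 0.71, the peptide transporter gene Tap1 by 0.71 and the heavy chain genes H2-D1 and H2-K1 by 0.65 and 0.53. Psmb8 was higher in the same comparison, while Psmb9 and Psmb10 did not pass in it. In static culture 2 of the 12 genes were higher and 4 lower in the Dync2h1 knockout (50% beside 27.6% of all genes). In the Ift140 knockout 0 were higher and 3 lower in each condition (25% beside 18.1% of all genes in static and 15.3% in flow culture).

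Across the 47 members, which share libraries within a comparison, the flow changes in wild-type and Ift140 knockout cells had a Pearson correlation of 0.77, those in wild-type and Dync2h1 knockout cells 0.66 and those in both knockouts 0.53, beside 0.56, 0.57 and 0.55 over all 16718 genes. These pairs of comparisons share no library. The spread within groups was like that of other genes, with a median SD of 0.17 on the log2 scale beside 0.16 for the 11980 genes between the lowest and highest member in level.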

How the data were processed

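RNA of 18 libraries in 6 groups of 3 was measured by sequencing. Per the submitters' processing notes, FastQC 0.11.5, Bowtie2 2.1.0 and RSEM 1.2.31 were used, with builds mm10 and GRCm38.p5 named; settings and annotation are not given in the sources used here. The values the authors deposited are TPM per gene name, 49845 names per library, and a leading total was left out. TPM sums to the same total in each library and keeps no depth, so precision from depth is unknown.

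The level filter (1 TPM or more in 3 or more libraries) left 16718 genes. Libraries were scaled by a trimmed mean of log ratios (30% of ratios and 5% of abundances trimmed, no weights). limma 3.58.1 in R 4.3.3 was fitted to log2(scaled TPM + 1), a log2 scale that understates changes of low genes, with 6 group means over all 18 libraries, 12 residual degrees of freedom, variances moderated by empirical Bayes along a trend with the mean. Calls were made at a Benjamini-Hochberg adjusted p under 0.05 over all genes. Comparisons, 9 in all, set flow against static within a line, each knockout against wild type in each condition, and tested the difference of each knockout's flow change from that of wild type. With 3 libraries a side the smallest p of an exact permutation test is 0.1, so smaller p-values rest on the model. The fit was checked on simulated data with 50 changed genes per fold size. For flow in wild-type and Dync2h1 knockout cells and Dync2h1 knockout against wild type in flow, it found 8% to 20% of 1.25-fold changes. Of 1.5-fold changes it found 68% to 78% there. These simulated fits called 146 to 151 genes, where the data gave 3173 to 5031, so the adjusted threshold was stricter in the simulation. Genes of low level were not among those changed. The shares found may therefore differ in these data. For the difference of the Dync2h1 and wild-type responses it found 4% of 1.25-fold and 30% of 1.5-fold changes. A small change that did not pass is therefore not shown to be absent.

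Every member was accounted for by role. Values in every library were given for the catalytic genes and for up to 8 members with the largest changes in each flow comparison and up to 5 in each other comparison. Of each context list up to 5 genes per comparison could be named, by smallest p. The members, lists and naming rule were chosen with earlier results of these data known. Alternatives were other scalings, pseudocounts of 0.1 and 5, no filter, no trend, a replicate block, only the groups compared, and each library left out. Gene positions came from GENCODE vM21 and promoters from RefSeq (GRCm38.p6), handled with Python 3.11.15 and pandas 2.3.3.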

Additional observations from a re-analysis of the deposited data

How the results depend on the processing

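Of 46 calls of a member in a comparison, 10, in 9 genes, passed under every alternative, and 0 changed direction under any. Counts of members that passed moved as follows. Without the filter on low values they were 2 for flow in wild-type cells (6 with the filter), 4 for flow in Dync2h1 knockout cells (10), 1 for the static Ift140 knockout (4), 3 for the static Dync2h1 knockout (6), 1 for the Ift140 knockout in flow (3) and 8 for the Dync2h1 knockout in flow (14). Without a mean-variance trend they were 2 for flow in wild-type cells and 2 for the static Ift140 knockout. With the deposited scaling they were 2 for flow in Dync2h1 knockout cells, 5 for the Ift140 knockout in flow and 8 for the Dync2h1 knockout in flow, and with quantile normalisation 3 for flow in Dync2h1 knockout cells and 7 for the Ift140 knockout in flow. When a fit held just the libraries of its own comparison, counts were 1 for flow in Ift140 knockout cells, 21 for flow in Dync2h1 knockout cells, 0 for the Ift140 knockout in flow and 1 for the difference of the Dync2h1 and wild-type responses. Leaving out 1 library gave 1 to 3 for flow in wild-type, 3 to 7 in Ift140 knockout and 3 to 7 in Dync2h1 knockout cells, 1 to 4 for the static Ift140 and 2 to 4 for the static Dync2h1 knockout, 0 to 10 for the Ift140 knockout in flow (0 without wild-type flow replicate 1, 10 without Ift140 knockout flow replicate 2), 8 to 12 for the Dync2h1 knockout in flow, and 0 for both differences of responses. Without Ift140 knockout flow replicates 2 or 3 flow in Ift140 knockout cells gave 7. The causes of these moves were not tested, except that left-out libraries leave fewer samples.

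Replicate numbers did not pair the libraries: over 45 pairs of same-numbered libraries the correlation of deviations from group means ran from -0.18 to 0.14, with 3 over 0.1. With the replicate number as a block, 2 members passed in the static Ift140 comparison and 4 for flow in wild-type cells, and the other counts stayed within 1.5 times. TPM keeps no depth, so what depth limits could not be given.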
